A study of Mus musculus with 58 samples.

Results

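The genes described here encode the heat-shock proteins and chaperones of the cytosol and mitochondria that are most often followed in stressed cells, and they were chosen by name as 10 of the 20177 genes listed in the deposited counts: Hspa8, Hspa1a, Hspa1b, Hsp90aa1, Hsp90ab1, Hsph1, Dnajb1, Hspd1, Hspe1 and Bag3. Their newly made and total RNA was followed in mouse embryonic stem cells (E14, 129/Ola background) that lost a core COMPASS subunit, and their total RNA was followed during exposure to retinoic acid (RA). COMPASS is the group of methyltransferase complexes that writes methylation on lysine 4 of histone H3 at promoters and enhancers, and DPY30 and RBBP5 are subunits that all of these complexes share.

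Chaperones bind unfolded proteins and help them to fold. Hsp70 proteins work in cycles of ATP hydrolysis that J-domain proteins start and that nucleotide exchange factors reset, and they hand clients on to Hsp90. In mitochondria, Hsp60 forms a barrel that Hsp10 closes. In stressed cells, HSF1 and related factors bind heat-shock elements, which are repeats of the unit nGAAn in alternating orientation, and switch on the inducible members within minutes, whereas Hspa8 and Hsp90ab1 are abundant in unstressed cells.

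SLAM-seq labels RNA made during a pulse of 4-thiouridine (4SU, 100 µM for 60 min), and the label reads as T>C conversions, so that reads with a T>C conversion count newly made RNA. It was done in 3 lines kept in serum and LIF. DPY30–mAID cells carry DPY30 fused at its own locus to an auxin-inducible degron, with the plant F-box protein OsTIR1 from a transgene, and were sampled at 0, 2, 8 and 24 h of auxin (n = 3 at each time). In RBBP5–FKBP cells, both copies of RBBP5 carry a tag that the ligand dTAG-13 targets for degradation, and the times were the same (n = 3 at each time); the line is 1 clone grown from a sorted cell. DPY30–mAID Kdm5a/b-dKO cells (dKO) are DPY30–mAID cells that also lack the H3K4 demethylase genes Kdm5a and Kdm5b, and they were sampled at 0, 2, 4, 8, 24 and 48 h of auxin (n = 2 at each time). Quant-seq without 4SU was done in DPY30–mAID cells before RA, in DMSO alone, and after 8 h and 1, 2, 4 and 6 days in 1 µM RA without LIF, with DMSO or auxin (n = 2 per group, and 1 for DMSO on day 6). The study describes the SLAM-seq replicates as biological. The labels do not say which dKO clone a library came from, nor whether the Quant-seq replicates were separate cultures, so p-values for Quant-seq measure only the spread between these libraries, which may be technical.

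The libraries held 1264241 to 7792404 reads in 3′ UTRs, and the dKO libraries were the deepest (5931269 to 7792404). Reads covered 17.97 to 19.0 T positions each in the DPY30–mAID and RBBP5–FKBP libraries but 11.2 to 11.3 in the dKO libraries, so T>C levels were not compared between lines, only changes from each line's own 0 h. Over whole libraries the T>C share averaged 15.8% before auxin and 9.46% after 8 h for DPY30–mAID, 9.56% before dTAG-13 and 5.13% after 24 h for RBBP5–FKBP, and 4.98% before auxin and 2.204% after 48 h for dKO cells. The DPY30–mAID libraries of 8 h spread widely, with 13.03, 9.82 and 5.51%. In DPY30–mAID cells, conversions per T>C read were 1.25, 1.24 and 1.25 at 0 h and 1.24, 1.16 and 1.06 at 8 h. At 24 h they were 1.32, 1.32 and 1.31. In RBBP5–FKBP cells they were 1.16, 1.17 and 1.16 at 0 h and 1.05, 1.05 and 1.05 at 24 h. In dKO cells they were 1.14 and 1.14 at 0 h and 1.03 and 1.03 at 48 h. The part of labelling in the T>C changes was not tested. Across lines, summed pluripotency markers (7 of 7 genes with reads) lay between 5533 and 8540 CPM, the reads scaled to a common library size, in SLAM-seq groups, and summed fibroblast markers (4 genes) between 0 and 4.90 CPM. Kdm5a was at 26.0 to 40.7 CPM in the dKO libraries against 61.1 to 144 CPM in the other lines and Kdm5b at 109 to 151 against 389 to 946 CPM. Both are counted in the 3′ UTR, which need not lie in the deleted part. Both DMSO libraries of day 6 carry the same count for every gene and stand for 1 sample, and day 6 was therefore left untested.

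The promoters of 7 members were taken from RefSeq (GRCm38.p6, 250 bases before to 50 bases after the annotated start) and searched for the heat-shock element in its 8-letter forms TTCNNGAA and GAANNTTC. Hspa8, Hsp90aa1 and Hsp90ab1 are named only. The windows below are shown because they hold every element match found in the members' promoters, with Hspa1a standing for Hspa1b as well, and with the letters of every element match in capitals and 40 bases on each side where the promoter reaches that far.
Hspe1 and Hspd1, chr1:55088019-55088116, + strand: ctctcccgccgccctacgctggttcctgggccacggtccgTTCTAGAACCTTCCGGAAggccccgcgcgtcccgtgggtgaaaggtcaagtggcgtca
Hsph1, chr5:149636287-149636409, − strand: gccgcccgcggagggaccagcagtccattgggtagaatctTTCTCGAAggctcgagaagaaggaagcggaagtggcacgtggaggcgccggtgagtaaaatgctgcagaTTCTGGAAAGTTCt
Hspa1a, chr17:34972213-34972300, − strand: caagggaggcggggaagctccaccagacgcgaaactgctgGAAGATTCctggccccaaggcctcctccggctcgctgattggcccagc
Bag3, chr7:128523585-128523632, + strand: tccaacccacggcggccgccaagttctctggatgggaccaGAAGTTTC
Position −1 is the last base before the start and 1 the first base of the gene. Hspe1, for Hsp10, and Hspd1, for Hsp60, are transcribed away from each other from 1 shared region (285 bases lie in both promoters), and their element starts at −89 on the Hspe1 side and at −144 on the Hspd1 side, from 1 of the annotated starts of Hspd1. It is made of 4 alternating units. In Hsph1, for the exchange factor Hsp110, the element starts at −33 and a second one at 37, or at −54 and 16 from its other annotated start. Hspa1a and Hspa1b encode nearly the same stress-inducible Hsp70, and their promoters are identical at 296 of 300 bases (98.7%), with the same element at −104 in both. The Bag3 match, GAAGTTTC, lies at 43 in the transcribed part. No match was found in the 2 promoter windows of Dnajb1, a J-domain protein that starts the Hsp70 cycle, which says only that these letters are not in those windows.

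Among 32851 mouse promoters of the same length, 8.52% held TTCNNGAA and 7.86% held GAANNTTC, searched on both strands and allowing matches to overlap each other. A run of 3 alternating units, in which the 2 forms share a unit, was in 198 of the promoters (0.603%), and Hspd1, Hspe1 and Hsph1 were among these genes. The CCAAT box was in 37.4% of all promoters and in 5 of the 7 members, and TATAAA in 13.6% and in none of the 7. A match is a description of the sequence and was not tested as a binding site.

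The counted reads lay in annotated 3′ UTRs (GRCm38), for example chr9:40805118-40805200 for Hspa8, chr12:110690605-110691539 for Hsp90aa1, chr1:55077835-55078287 for Hspd1, chr1:55091121-55091307 for Hspe1, chr5:149616544-149617506 for Hsph1 and chr8:83610820-83612653 for Dnajb1. Several of these genes have near-identical processed copies elsewhere in the genome. In SLAM-seq, 99.9% of the Hspa8 reads, 98.4% of those of Hsp90aa1, 84.6% of those of Hspd1 and 73.6% of those of Hspe1 mapped to more than 1 place, against 29.4% over all genes. Hsp90ab1 stood at 11.1%, and Hspa1a, Hspa1b, Hsph1, Dnajb1 and Bag3 at most at 0.375%. Quant-seq gave 100.0% for Hspa8, 92.6% for Hsp90aa1, 82.6% for Hspd1, 79.8% for Hspe1 and 16.9% for Hsp90ab1. Values of Hspa8, Hsp90aa1, Hspd1 and Hspe1 may thus include reads of their copies. Hspa1a and Hspa1b encode nearly the same protein, but 0 of 514 Hspa1a and 4 of 1571 Hspa1b SLAM-seq reads, and 0 of either in Quant-seq, were multimapped.

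At 0 h the share of reads with a T>C conversion in DPY30–mAID cells was largest for Hspa1b, Bag3, Hspa1a and Dnajb1 and smallest for Hsp90aa1. In these cells, 52.3% ± 10.3 (SD, n = 3) of the Hspa1b reads, 45.5% ± 11.2 (SD, n = 3) of those of Bag3, an exchange factor of Hsp70, 37.0% ± 3.54 (SD, n = 3) of those of Hspa1a and 26.6% ± 2.68 (SD, n = 3) of those of Dnajb1 carried a T>C conversion. Hsph1 had 19.0% ± 0.620 (SD, n = 3). The abundant members lay lower, with 14.0% ± 1.20 (SD, n = 3) for Hspd1, 13.9% ± 1.60 (SD, n = 3) for Hspe1, 12.6% ± 0.565 (SD, n = 3) for Hsp90ab1, 11.9% ± 2.18 (SD, n = 3) for Hspa8 and 10.2% ± 1.09 (SD, n = 3) for Hsp90aa1. The libraries of Bag3 overlapped those of both Hspa1b and Hspa1a, whereas every Hspa1b library lay above every Hspa1a library. Among the abundant genes, Hspa8 overlapped the other 4, and every Hsp90aa1 library lay below those of Hsp90ab1, Hspe1 and Hspd1. No test was made between genes, whose reads may cover different numbers of T positions. Across conditions, 107 exact two-sided permutation tests of a gene's T>C share between groups gave p = 0.1 at the lowest (0.345 after adjustment), which is the smallest that 3 libraries against 3 allow. The unlabelled Quant-seq libraries gave 0.979% for Hsp90aa1 and 0.105 to 0.626% for the other members (all genes, 0.346%), which is the background of conversions without 4SU. In RBBP5–FKBP cells at 0 h Dnajb1 had 30.6, 22.0 and 20.9%, above every library of Hspa1b (8.00, 12.8 and 15.3%), and Bag3 spread from 10.0 to 45.2% on 15 to 42 reads per library, while Hspa1a had 3 T>C reads among 15 in all. Hspa1b (17.1 and 14.3%), Bag3 (10.8 and 13.2%) and Dnajb1 (9.87 and 11.4%) had the highest shares in the dKO libraries. Hspa1a had 0 and 0 T>C reads in these, among 6 and 14 reads, which is too few for a share.

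**Figure D1:**
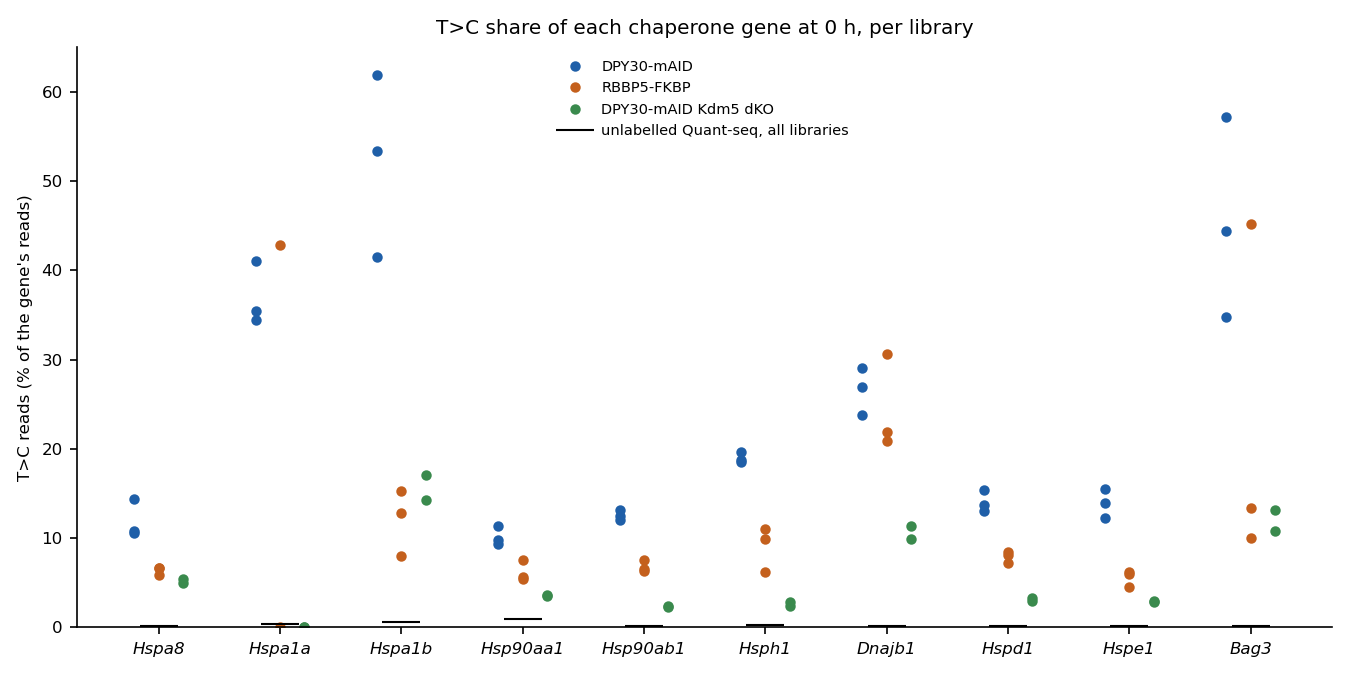
Share of each gene's reads that carry a T>C conversion (y axis, percent) at 0 h, with 1 point per library for the 3 SLAM-seq lines and a black bar for the unlabelled Quant-seq libraries. In DPY30–mAID cells the points of Hspa1b, Bag3 and Hspa1a lie above 34%, those of Dnajb1 between 23.8 and 29.1%, and those of the 5 abundant genes below 15.6%. The 2 points at 0% for Hspa1a rest on fewer than 15 reads each.

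T>C reads of 8 of the 10 members fell by 8 h of DPY30 degradation, whereas no member passed the test at 2 h. After 24 h only Hspa1b and Hsph1 remained called lower against 0 h, and 5 members, Hspa8, Hspe1, Dnajb1, Hsp90aa1 and Hsp90ab1, were higher than at 8 h. All 10 passed the filter on low counts. At 2 h all 10 had a log2 fold change below 0, edgeR's quasi-likelihood test called 0 of them (0% of all genes tested were called in either direction), DESeq2 called 0, and 1, Hsph1, had an unadjusted p under 0.05. At 8 h the share of all genes called lower was 16.1%, and the median log2 fold change was −1.59 over the members and −0.71 over all genes. At 24 h 2.79% of all genes were called lower, and 17.1% were called higher at 24 h than at 8 h. In bulk RNA, a smaller number of cells that express a gene and less RNA per cell cannot be told apart.

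Values below are T>C CPM, the T>C reads of a gene scaled to all reads of its library in the way of CPM, in replicate order. Hspa8, the constitutive Hsp70, had 91.8, 87.6 and 111 at 0 h, 58.0, 43.1 and 16.4 at 8 h and 147, 136 and 134 at 24 h. The 3 libraries of 8 h lay below and those of 24 h above those of 0 h. Its log2 fold change at 8 h was −1.40 ± 0.32 SE, adjusted p = 0.00217, and from 8 to 24 h it was 1.92 ± 0.32 SE, adjusted p = 3.55e-05. Hspa1b had 11.7, 34.2 and 20.3 at 0 h, 7.24, 3.39 and 5.47 at 8 h and 6.02, 7.27 and 0.807 at 24 h. Its 0 h libraries spread widely, and no library of 8 or 24 h reached the lowest of them. It fell at 8 h (−2.13 ± 0.55 SE, adjusted p = 0.00583) and was still lower at 24 h (−2.26 ± 0.56 SE, adjusted p = 0.0143). Both calls were lost without 0 h replicate 2, with −1.66 (adjusted p = 0.0728) and −1.79 (adjusted p = 0.136), and that of 24 h also without 24 h replicate 3. For Hspa1a, 4 to 5 T>C reads per library remained at 8 h (4.88, 6.06 and 5.80 T>C CPM at 0 h against 2.13, 1.94 and 2.28), and the log2 fold change of −1.48 ± 0.83 SE, adjusted p = 0.216, did not pass the test. With both paralogues summed the log2 fold change was −1.98 (adjusted p = 0.00306) at 8 h and −1.99 (adjusted p = 0.0115) at 24 h.

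Among the partners of Hsp70, Hsph1 was called lower at both 8 and 24 h. It had 85.9, 76.2 and 90.6 at 0 h, 61.2, 52.2 and 40.7 at 2 h, 26.4, 27.6 and 14.1 at 8 h and 40.5, 30.6 and 31.5 at 24 h. The libraries of 0 h lay above all 9 others. Its log2 fold change was −1.99 ± 0.33 SE, adjusted p = 7.37e-05, at 8 h and −1.31 ± 0.32 SE, adjusted p = 0.0153, at 24 h, and the 24 h call was lost without 0 h replicate 1 or 3 or without 24 h replicate 2 or 3 (adjusted p between 0.067 and 0.0993). Dnajb1 went from 31.2, 36.0 and 29.7 at 0 h to 19.6, 17.4 and 12.8 at 8 h and 60.2, 75.7 and 39.6 at 24 h. Its 24 h libraries lay above those of 0 h. The fall at 8 h (−1.06 ± 0.36 SE, adjusted p = 0.0335) was lost in 4 of 12 fits that left out 1 library, and the rise from 8 to 24 h (1.90 ± 0.36 SE, adjusted p = 0.000158) held in all 12. Bag3 had 7.81, 4.28 and 5.80 at 0 h and 1.28, 2.42 and 1.37 at 8 h, from 3 to 16 T>C reads per library, and did not pass the test (−1.88 ± 0.85 SE, adjusted p = 0.117). At 24 h it had 1.20, 0.970 and 1.61, and its log2 fold change of −2.19 (adjusted p = 0.146) did not pass either.

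For the Hsp90 pair, Hsp90aa1, the inducible form, had 294, 275 and 304 at 0 h, 207, 143 and 82.5 at 8 h and 345, 287 and 288 at 24 h. It fell at 8 h (−1.12 ± 0.28 SE, adjusted p = 0.00485) and was at 0.06 (adjusted p = 0.923) at 24 h against 0 h. Hsp90ab1, the constitutive form, had 873, 802 and 719, then 498, 369.8 and 236 and 568, 577 and 547. Every library of 24 h lay between those of 0 h and 8 h. Its fall at 8 h was −1.22 ± 0.26 SE, adjusted p = 0.00111, and its rise from 8 to 24 h (0.71 ± 0.26 SE, adjusted p = 0.0459) held in 2 of 12 fits that left out a library and was not called with no TMM factors (0.62, adjusted p = 0.1) or with no filter on low counts (0.71, adjusted p = 0.0687). In mitochondria, Hspd1 went from 269.5, 233 and 194 to 137, 62.4 and 29.6 at 8 h and 144, 128 and 119 at 24 h, and Hspe1 from 114, 109.7 and 105 to 51.6, 38.2 and 15.9 and 112, 120.3 and 140.0. Both fell at 8 h, Hspd1 by 1.71 and Hspe1 by 1.74 on the log2 scale (adjusted p = 0.000371 and 0.00025). At 24 h the Hspe1 libraries lay within or above the range of 0 h and those of Hspd1 below it, although Hspd1 did not pass the test (−0.85, adjusted p = 0.124).

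The T>C share of whole libraries moved with these results. Counts of calls with T>C reads scaled to their own total are given, here and below, without the share of all genes. Those counts are not read as a trait of the members. When T>C reads were scaled to their own total, the median of all genes at 8 h rose from −0.71 to −0.09, and 6 members were still called lower. Their changes were smaller on this scale, −0.81 (adjusted p = 0.00347) for Hspa8, −0.48 (adjusted p = 0.0153) for Hsp90aa1, −0.56 (adjusted p = 8.76e-05) for Hsp90ab1, −1.32 (adjusted p = 6.19e-05) for Hsph1, −1.15 (adjusted p = 1.18e-06) for Hspd1 and −1.13 (adjusted p = 2.42e-05) for Hspe1. Dnajb1, at −0.38 (adjusted p = 0.537), and Hspa1b, at −1.45 (adjusted p = 0.0677), were lost. At 24 h this scaling called Hspa1b, Hsph1, Hspd1 and Hsp90ab1 lower, and Hspa8, at 0.63 (adjusted p = 0.0109), and Dnajb1, at 0.94 (adjusted p = 0.00871), higher. From 8 to 24 h it kept 4 of the 5 rises called, 1.43 for Hspa8, 1.42 for Hspe1, 1.31 for Dnajb1 and 0.66 for Hsp90aa1, while Hsp90ab1, at 0.16 (adjusted p = 0.305), was lost. Without replicate 3 of 8 h, the library with the lowest T>C share, the 8 calls at 8 h held, with log2 fold changes between −0.84 (Hsp90aa1) and −2.14 (Hspa1b).

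**Figure D2:**
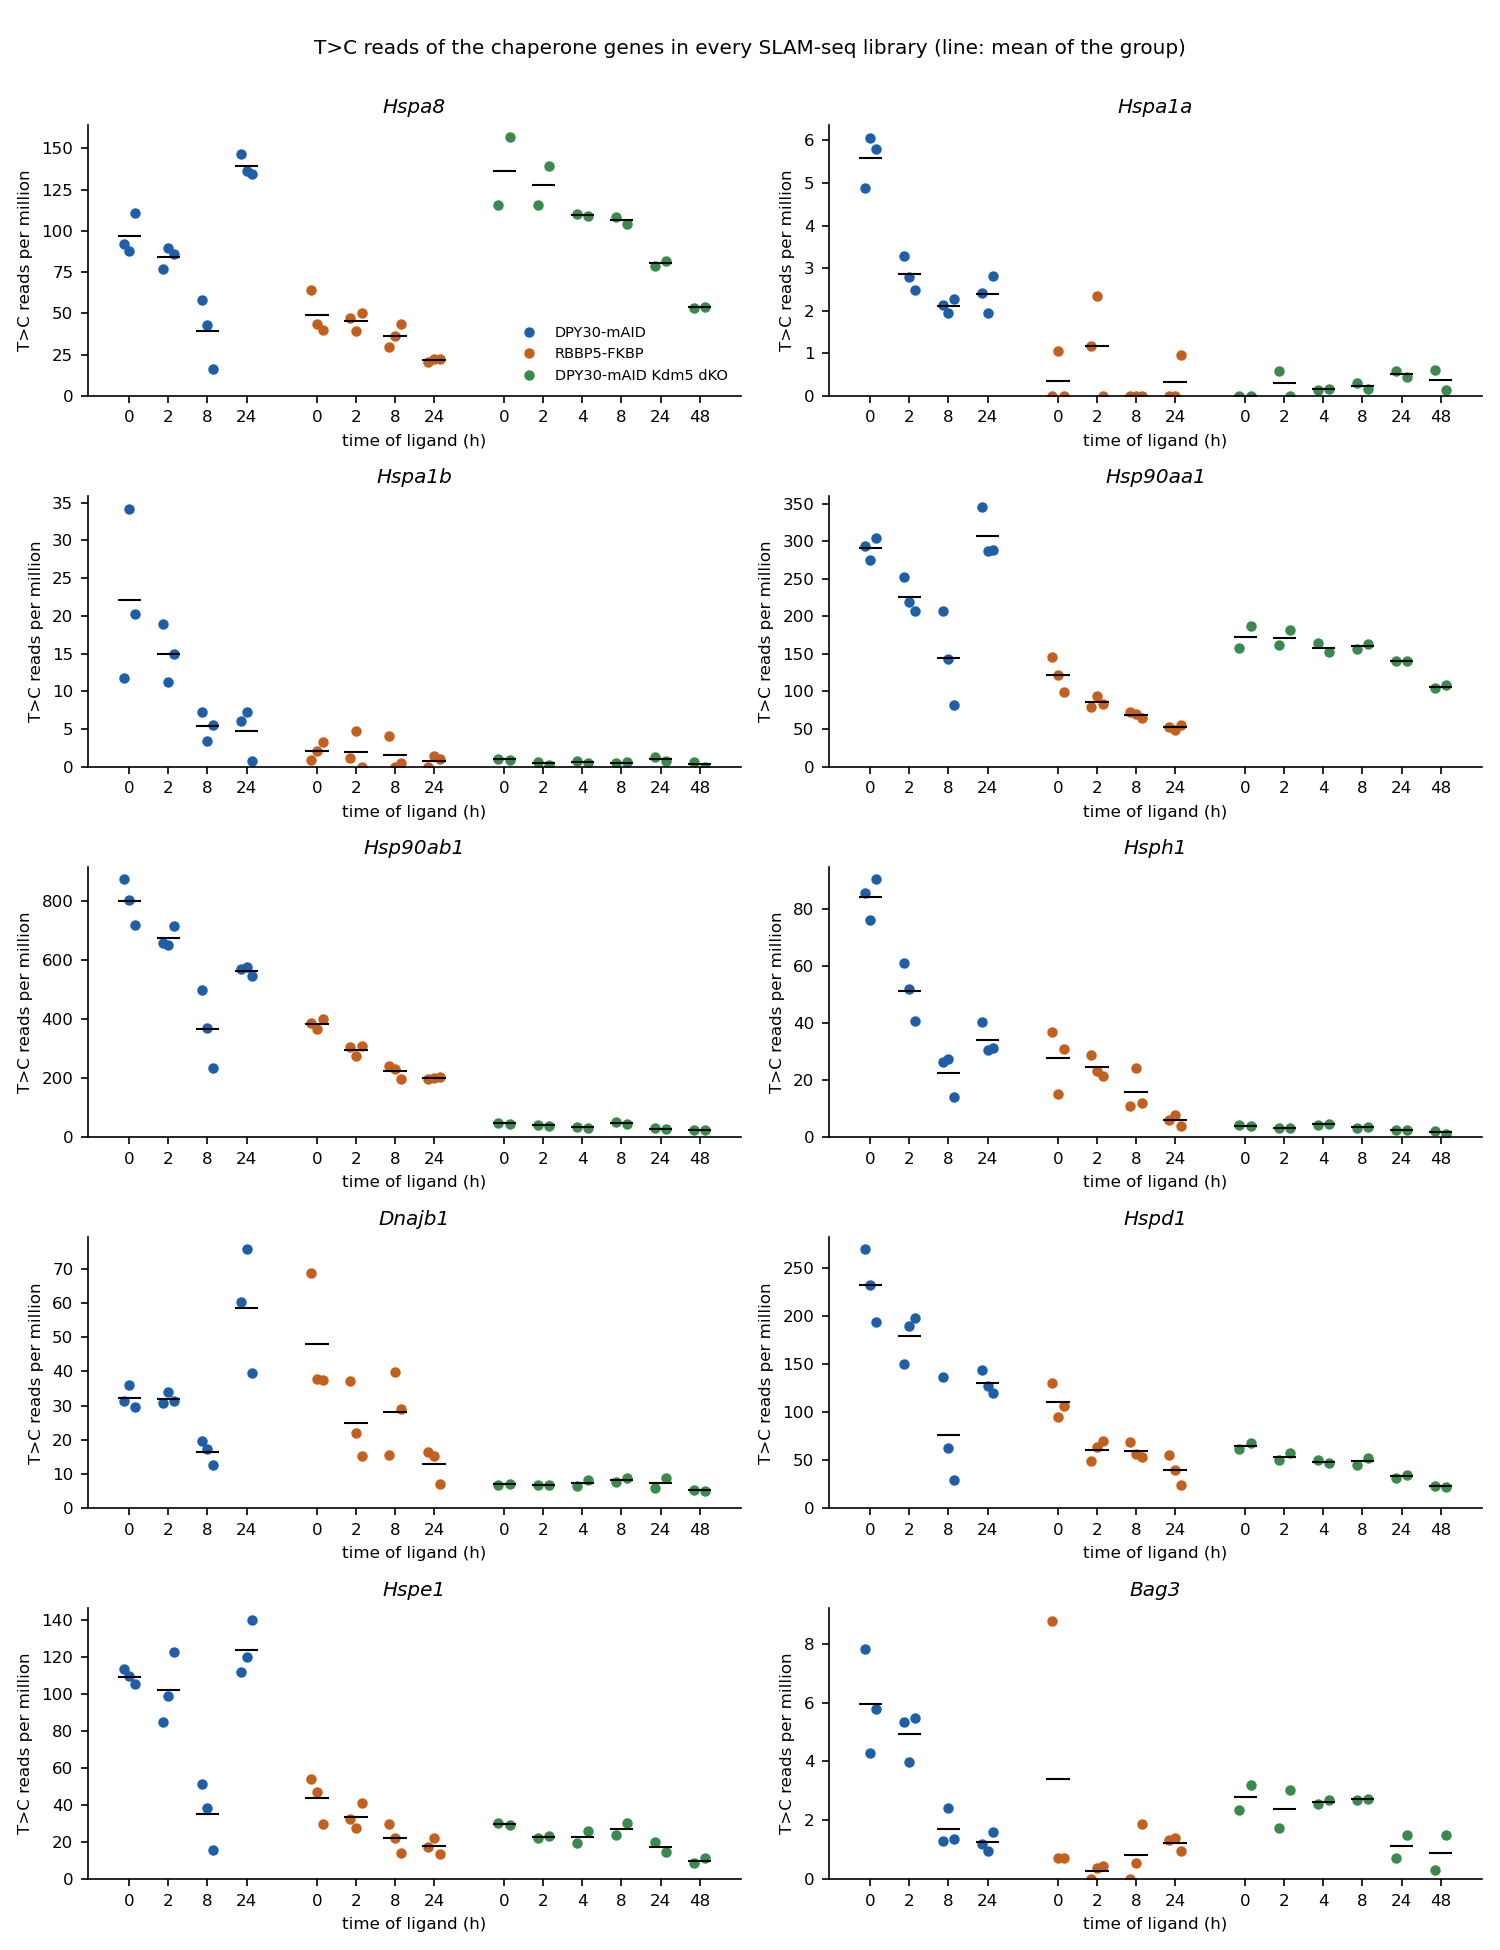
T>C CPM (T>C reads scaled to all reads of the library, y axis, linear, its own scale per panel) for each of the 10 genes. The x axis gives hours of auxin or dTAG-13, evenly spaced, with the lines side by side. There is 1 point per SLAM-seq library and a short bar at each group mean. In DPY30–mAID cells Hspa8 goes from 87.6 to 111 at 0 h to 16.4 to 58.0 at 8 h and 134 to 147 at 24 h, whereas in RBBP5–FKBP cells it goes from 39.9 to 64.2 at 0 h to 20.4 to 22.4 at 24 h.

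In RBBP5–FKBP cells 4 members were called lower at 8 h, and at 24 h all 7 that passed the filter on low counts were. Tested from 8 to 24 h, edgeR called 0 of the 7 (1.20% of all genes in either direction), DESeq2 called 0, and 4 had an unadjusted p under 0.05. Hspa1a, Hspa1b and Bag3 did not pass it, with at most 6, 12 and 19 T>C reads in a library. At 2 h edgeR called 0 of the 7 (0.252% of all genes in either direction), DESeq2 called 2, and 4 had an unadjusted p under 0.05. At 8 h Hsp90aa1, Hsp90ab1, Hspd1 and Hspe1 were called lower (7.71% of all genes). At 24 h 25.9% of all genes were called lower, and the median log2 fold change was −1.33 over the 7 members and −0.91 over all genes.

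Hsph1 fell most, from 36.9, 15.4 and 30.9 T>C CPM at 0 h to 6.20, 7.92 and 3.86 at 24 h (−2.22 ± 0.43 SE, adjusted p = 6.99e-05). Dnajb1 went from 68.8, 37.9 and 37.4 to 16.4, 15.4 and 7.23 (−1.90 ± 0.36 SE, adjusted p = 4.26e-05). For both genes no library of 24 h reached the lowest of 0 h. Hspd1 had 130.2, 95.0 and 106 at 0 h, 69.1, 56.9 and 53.6 at 8 h and 55.4, 39.6 and 24.1 at 24 h. Its log2 fold changes were −0.93 (adjusted p = 0.00956) and −1.51 (adjusted p = 3.62e-06). For Hspe1 they were 54.0, 47.3 and 29.8, 30.0, 22.1 and 14.1 and 17.3, 22.4 and 13.5, and the call at 8 h (−1.04, adjusted p = 0.0345) was lost in 4 of 12 fits that left out a library while that at 24 h (−1.33, adjusted p = 0.00144) was not. Hspd1 at 8 h was lost in 2, without 0 h replicate 1 and without 8 h replicate 3. Hsp90aa1 fell from 145, 122 and 99.9 to 72.6, 70.2 and 64.8 and then 52.7, 48.4 and 55.4, and Hsp90ab1 from 387, 367 and 399.8 to 241, 233 and 199 and 197, 202 and 206. The Hsp90 genes reached −1.26 (adjusted p = 9.48e-06) and −0.97 (adjusted p = 1.83e-06) at 24 h, and Hspa8 −1.21 (adjusted p = 0.00095). With T>C reads scaled to their own total, which moved the median of all genes at 24 h from −0.91 to −0.20, the 7 calls came down to 1, Hsph1, and the 4 calls at 8 h to 0.

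Without Kdm5a and Kdm5b the members did not pass the test during the first 8 h of auxin, and most were called lower at 24 and 48 h, as were many other genes. Of the 8 members tested (Hspa1a and Hspa1b did not pass the filter), edgeR and DESeq2 called 0 at 2, 4 and 8 h, where 0%, 0.587% and 1.56% of all genes were called in either direction by edgeR. At these times 1, 4 and 2 members had an unadjusted p under 0.05. Called lower were 6 members at 24 h (43.0% of all genes) and 7 at 48 h (72.2%). The members' median was −0.79 at 24 h and −1.32 at 48 h, and that of all genes was −0.80 and −1.29.

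Hspa8 had 116 and 157 T>C CPM at 0 h, 108 and 104 at 8 h, 78.8 and 81.9 at 24 h and 53.2 and 54.1 at 48 h. Hspd1 went from 61.9 and 67.8 to 31.9 and 34.5 and 23.6 and 22.3, and Hspe1 from 30.4 and 29.1 to 20.3 and 14.7 and 8.84 and 11.1. The groups of 0, 24 and 48 h did not overlap for any of these genes. At 48 h Hspe1 stood at −1.66 (adjusted p = 5.32e-11), Hspd1 at −1.59 (adjusted p = 6.8e-14) and Hspa8 at −1.44 (adjusted p = 3.72e-14). Dnajb1 was the exception, with 6.91 and 7.06 at 0 h, 5.90 and 8.78 at 24 h and 5.49 and 5.05 at 48 h, and it did not pass the test at 48 h (−0.49, adjusted p = 0.11). Hsp90aa1 stood at −0.78 (adjusted p = 6.01e-07), Hsp90ab1 at −1.11 (adjusted p = 2.18e-08), Hsph1 at −1.21 (adjusted p = 0.00597) and Bag3 at −1.70 (adjusted p = 0.00411). The call of Hsph1 was lost without 48 h replicate 2, and those of Bag3 without 0 h replicate 2 or without the first replicate of 24 or 48 h. Hsp90aa1 at 24 h (−0.36, adjusted p = 0.0241) was lost without 0 h replicate 2 or either 24 h library. Scaled to their own total, which moved the median of all genes at 48 h from −1.29 to −0.11, 1 member was lower at 48 h (Hspd1) and Hsp90aa1 was higher, at 0.38 (adjusted p = 0.00208) at 24 h and 0.41 (adjusted p = 0.000556) at 48 h.

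**Figure D3:**
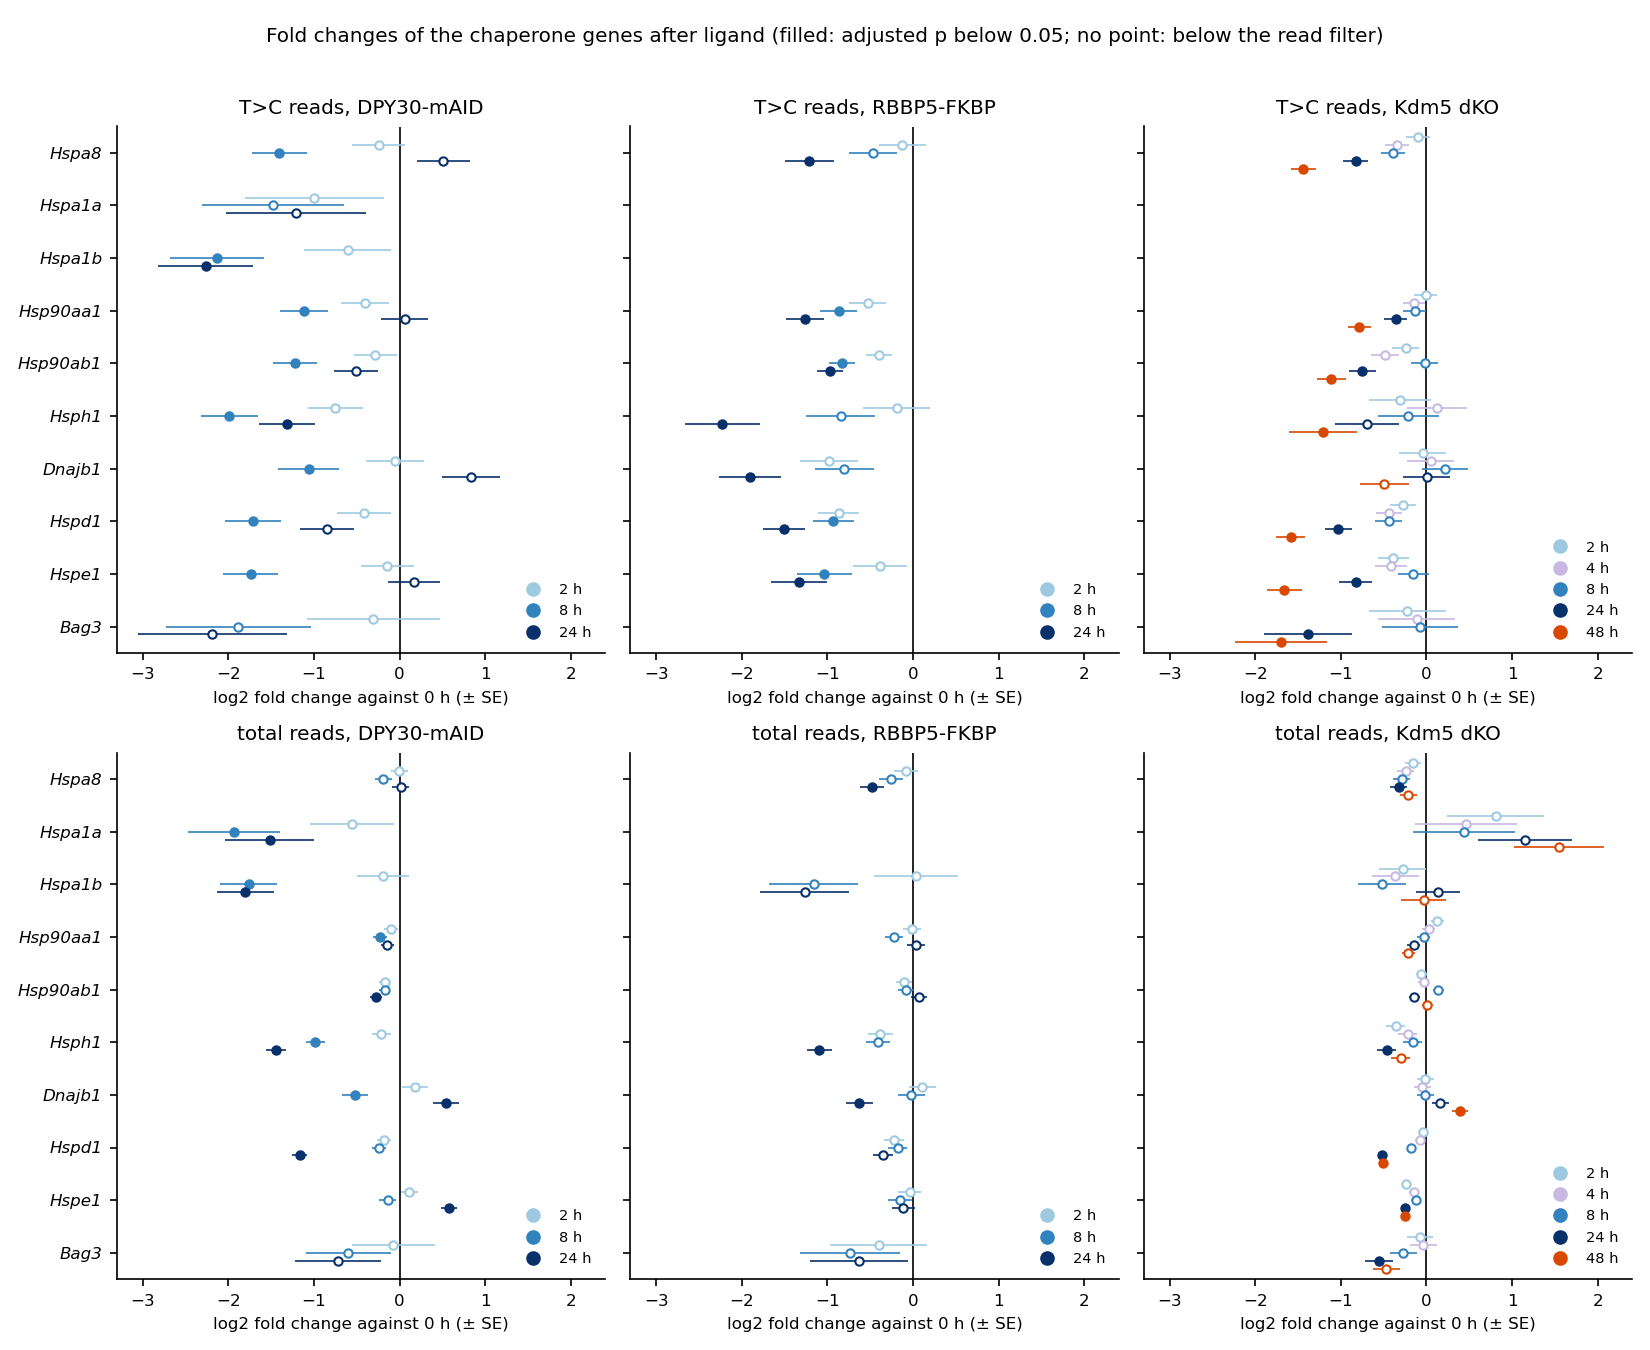
Log2 fold change of T>C reads against 0 h of the same line (points, with bars of 1 SE) for each member tested in each line and time, on reads scaled to the library total. The 8 h points of DPY30–mAID cells lie between −1.06 and −2.13, those of dKO cells at 8 h between −0.44 and 0.22, and the 24 h points of RBBP5–FKBP cells between −0.97 and −2.22.

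The lines were compared by the difference of their changes, in a fit with an interaction of line and time. At 24 h the median difference of RBBP5–FKBP minus DPY30–mAID cells was −0.80 over the 10 members and −0.66 over all genes. The difference was called lower for 4 members (8.21% of all genes were called lower): Dnajb1 (−2.76 ± 0.51 SE, adjusted p = 9.56e-05), Hspa8 (−1.74 ± 0.42 SE, adjusted p = 0.00311), Hspe1 (−1.51 ± 0.44 SE, adjusted p = 0.0155) and Hsp90aa1 (−1.34 ± 0.35 SE, adjusted p = 0.0064). In each of them the DPY30–mAID change was above 0 and the RBBP5–FKBP change below −1. The call of Hspe1 was lost without DPY30–mAID 24 h replicate 3, RBBP5–FKBP 0 h replicate 1 or RBBP5–FKBP 24 h replicate 3. With own scaling Dnajb1 and Hspa8 remained called. At 2 and 8 h edgeR called 0 of 10 (0% and 0.0937% of all genes in either direction) and DESeq2 0, and 0 and 2 had an unadjusted p under 0.05. Hspa1a, Hspa1b and Bag3, below the filter in RBBP5–FKBP cells, entered this fit only through DPY30–mAID cells. The degrons and their ligands differ between these lines, and the effect of the line and that of the ligand cannot be told apart.

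At 8 h the change in the dKO cells minus that in DPY30–mAID cells was above 0 for each of the 8 members that passed the filter in both lines. Hspa1a and Hspa1b, below the filter in dKO cells, entered this fit only through DPY30–mAID cells. The test of edgeR called 0 of 10 (0.319% of all genes in either direction). The median difference was 1.30 over the 10 members and 0.53 over all genes. By unadjusted p, 8 of 10 lay under 0.05, and DESeq2 called 4 higher. These counts carry no share of all genes and are not read as a trait of the members. Hspe1 (1.59, adjusted p = 0.0605), Hsp90ab1 (1.21, adjusted p = 0.0712) and Hsph1 (1.79, adjusted p = 0.0742) came nearest to a call by edgeR. The result turned on the libraries of DPY30–mAID at 8 h and on the scaling. Without replicate 1, 7 members were called higher, and without replicate 3, 4 were, again without the share of all genes. Own scaling, with every library kept, called Hspe1 (1.23, adjusted p = 0.00575), Hspd1 (0.96, adjusted p = 0.0217), Hsp90ab1 (0.80, adjusted p = 0.00485) and Hsp90aa1 (0.62, adjusted p = 0.0398) higher. At 24 h Hspa8 was lower in the dKO cells (−1.32 ± 0.38 SE, adjusted p = 0.0432), where 2.38% of all genes were, and this call held in 7 of 24 fits that left out a library and was lost with no TMM factors (adjusted p = 0.0534). With own scaling it was −0.71 (adjusted p = 0.0397). At 2 h edgeR and DESeq2 called 0 of 10 (0% of all genes), and 1 had an unadjusted p under 0.05. No size of difference is given for Hspa1a, which had no T>C read in the dKO libraries of 0 h.

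Total RNA changed in both directions. In DPY30–mAID cells, Hsph1, Hspa1b, Hspa1a, Dnajb1 and Hsp90aa1 were called lower at 8 h (7.61% of all genes were), and Hsph1, Hspd1, Hspa1b, Hspa1a and Hsp90ab1 at 24 h (17.1%). Dnajb1 and Hspe1 were higher at 24 h (15.9%). At 2 h edgeR and DESeq2 called 0 of 10 (0.0305% of all genes in either direction), and 2 had an unadjusted p under 0.05. Cell type markers moved over the same time. Of 7 pluripotency markers, 5 were called lower at 8 h, and 3 lower and 1 higher at 24 h. At 24 h 1 of 3 RA and neural markers tested and 1 of 2 trophectoderm markers tested were lower, and the 1 primitive endoderm marker tested was higher. Their part in the chaperone changes was not tested.

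Hsph1 had 437, 412 and 483 CPM at 0 h, 251, 243 and 229 at 8 h and 189, 161 and 142 at 24 h. The 3 groups did not overlap, and the log2 fold changes were −0.98 ± 0.11 SE, adjusted p = 6.46e-09, at 8 h and −1.45 ± 0.12 SE, adjusted p = 1.41e-14, at 24 h. Hspa1b went from 22.0, 55.2 and 48.9 to 17.9, 11.6 and 10.5 and 14.0, 17.0 and 6.05 (−1.80 ± 0.33 SE, adjusted p = 2.22e-05, at 24 h), and Hspa1a from 14.2, 17.1 and 14.1 to 4.69, 3.39 and 4.56 and 5.22, 2.42 and 8.07. Hspa1a fell at 8 h (−1.93, adjusted p = 0.011) and at 24 h (−1.52, adjusted p = 0.0202), and the first call was lost without 8 h replicate 2 and the second without 0 h or 24 h replicate 2. Dnajb1 went from 107, 134 and 125 to 83.9, 112 and 78.8 at 8 h and 181, 198 and 160.2 at 24 h. Its 24 h libraries all lay above those of 0 h (0.54 ± 0.15 SE, adjusted p = 0.00369), while the call at 8 h (−0.52, adjusted p = 0.0182) was lost in 4 of 12 fits that left out a library.

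The mitochondrial pair parted at 24 h. Hspd1 had 1751, 1703 and 1484 CPM at 0 h, 1533, 1454 and 1504 at 8 h and 782, 728 and 711 at 24 h, a log2 fold change of −1.17 ± 0.09 SE, adjusted p = 7.98e-16. Hspe1 had 814, 708 and 857, 807, 834 and 676 and 1060, 1308 and 1202, a log2 fold change of 0.58 ± 0.10 SE, adjusted p = 4.61e-06. Every 24 h library was thus below the lowest of 0 h for Hspd1 and above the highest for Hspe1, the genes that share the promoter region printed above. With multimapped reads subtracted the changes at 24 h were −0.98 (adjusted p = 7.26e-10) for Hspd1 and 0.57 (adjusted p = 6.8e-05) for Hspe1. Hsp90aa1 at 8 h (−0.23, adjusted p = 0.0481) turned to 0.18 (adjusted p = 0.701) when multimapped reads were subtracted and held in 4 of 12 fits that left out a library. Hsp90ab1 fell by 0.27 on the log2 scale at 24 h (adjusted p = 0.00133).

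In RBBP5–FKBP cells, total reads of Hsph1 (336, 249 and 313 CPM at 0 h against 162, 141 and 126 at 24 h), Dnajb1 (225, 172 and 179 against 131, 130.4 and 119.5) and Hspa8 (960.1, 651 and 677 against 577, 533 and 564) were called lower at 24 h (4.49% of all genes, 9 members tested). Hsph1 (−1.10 ± 0.15 SE, adjusted p = 3.33e-05) was called in every fit that left out a library. Dnajb1 (−0.63, adjusted p = 0.0155) was lost without 0 h replicate 1 or 24 h replicate 3, and Hspa8 (−0.48, adjusted p = 0.0361) in 7 of 12 fits. At 2 h (0% of all genes) and 8 h (9.25%, either direction) edgeR and DESeq2 called 0 members, and 1 and 3 had an unadjusted p under 0.05. At 24 h 1 of 7 pluripotency markers was higher and 1 of 2 trophectoderm markers tested was lower.

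In the dKO cells, Hspd1 (2115 and 2027 CPM at 0 h, 1505 and 1517 at 24 h and 1584 and 1515 at 48 h) and Hspe1 (1070 and 970.0, 921 and 874 and 935 and 893) were called lower at 24 and 48 h. Here both mitochondrial genes went the same way, Hspd1 to −0.51 (adjusted p = 5.34e-06) and Hspe1 to −0.25 (adjusted p = 0.00769) at 48 h. Hspa8 (−0.32, adjusted p = 0.0424), Hsph1 (−0.46, adjusted p = 0.0146) and Bag3 (−0.55, adjusted p = 0.0365) were also lower at 24 h, where 6.44% of all genes were, and not called at 48 h, where 7.84% were. The 24 h call of Hspa8 was lost in 7 of 12 fits that left out a library, down to −0.14 (adjusted p = 0.357) without 0 h replicate 2, and that of Bag3 in 3, without 0 h replicate 2 or either 24 h library. Those of Hsph1 and of Hspe1 at 24 h were lost without 0 h replicate 1 or 24 h replicate 2. DESeq2 did not call Bag3 (adjusted p = 0.0955), and with multimapped reads subtracted neither Hspa8 (−1.12, adjusted p = 0.268) nor Hspe1 (−0.23, adjusted p = 0.0569) was called at 24 h. With no TMM factors Hspa8, Bag3 and Hspe1 were not called at 24 h, nor Hspe1 at 48 h. Dnajb1 was higher at 48 h (70.0 and 62.1 against 96.3 and 87.7 CPM, 0.39 ± 0.09 SE, adjusted p = 0.0107, 6.72% of all genes higher), a call lost without 0 h replicate 2 or 48 h replicate 1. At 2, 4 and 8 h edgeR called 0 of 10 (0%, 0% and 0.772% of all genes in either direction) and DESeq2 1, 0 and 0. By unadjusted p, 2, 2 and 3 members were lower at these times, and 1 was higher at 8 h. In these cells 3 of 7 pluripotency markers were lower at 24 h, and 2 lower and 1 higher at 48 h. Of 5 RA and neural markers tested, 1 was lower at both times, and of 3 trophectoderm markers tested, 1 was lower at both and 1 higher at 48 h.

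Most of the abundant chaperones were lower after 1 day of RA. In DMSO, Hspa8, Hsp90aa1, Hsp90ab1, Hsph1 and Hspd1 were called lower against 0 h on days 1, 2 and 4, joined by Bag3 on day 1, Dnajb1 on day 2 and Hspe1 on day 4, whereas Hspe1 first rose. Of all genes, 23.9%, 22.6% and 26.5% were called lower on days 1, 2 and 4. Higher calls were Hspd1 and Hspe1 at 8 h (8.94% of all genes), Hspe1 on day 1 (27.9%), and Hspa1a and Hspe1 on day 2 (25.4%). The members' median log2 fold change was −0.96 on day 1 and −0.48 on day 4, against 0.10 and 0.04 over all genes. Cell types changed over the same days: summed pluripotency markers stood at 6398 CPM at 0 h, 7374 on day 1, 4230 on day 2 and 3377 on day 4, with 5 of 7 genes called lower and 1 higher on day 1 and 7 of 7 lower on day 4, and summed primitive endoderm markers were at 32.8 CPM on day 1 and 1504 on day 4, with 5 of 5 called higher on day 4. From 0 h to day 4, summed RA and neural markers went from 91.7 to 442 CPM. Summed trophectoderm markers went from 32.6 to 461 CPM and summed fibroblast markers from 0.448 to 30.6 CPM. Their part in the chaperone changes was not tested.

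Hspa8 had 809.9 and 785 CPM before RA, 774 and 872 at 8 h, 235 and 209.9 on day 1, 289 and 296 on day 2, 605 and 604 on day 4 and 536 on day 6. It was lowest on day 1 (−1.83 ± 0.11 SE, adjusted p = 4.54e-13) and part of the way back on day 4 (−0.58 ± 0.10 SE, adjusted p = 3.93e-05). Hsp90ab1 was also lowest on day 1 among the days tested, with 6102 and 5990 CPM before RA, 6427 and 6268 at 8 h, 3139 and 3363 on day 1, 4633 and 4704 on day 2, 5205 and 5268 on day 4 and 3984 on day 6. Its log2 fold change was −0.89 ± 0.08 SE, adjusted p = 4.47e-10, on day 1. Hsp90aa1 was lowest on day 4, with 2508 and 2605 CPM before RA, 2097 and 2205 at 8 h, 1280 and 1169 on day 1, 914 and 900.3 on day 2, 894 and 851 on day 4 and 1034 on day 6. On day 4 it stood at −1.73 ± 0.10 SE, adjusted p = 3.89e-14.

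Hsph1 had 275 and 302 CPM before RA, 278 and 308 at 8 h, 74.9 and 95.3 on day 1, 78.8 and 101 on day 2, 104 and 116 on day 4 and 166 on day 6. It fell to −1.76 (adjusted p = 2.89e-10) on day 1 and was at −1.58 (adjusted p = 5.61e-10) on day 4, with no library of days 1 to 6 within the range of 0 h. Hspd1 had 1690 and 1707 CPM before RA, 1898 and 1941 at 8 h, 657 and 663 on day 1, 889 and 881 on day 2, 939 and 1041 on day 4 and 1038 on day 6. Its day 1 change was −1.36 ± 0.09 SE, adjusted p = 9.55e-13, and its small rise at 8 h (0.24, adjusted p = 0.0478) held in 3 of 21 fits that left out a library. Hspe1 had 632 and 696 CPM before RA, 948 and 1008 at 8 h, 1320 and 1197 on day 1, 811 and 843 on day 2, 451 and 483 on day 4 and 304 on day 6. It was thus highest on day 1 (0.93 ± 0.10 SE, adjusted p = 1.01e-08), the day on which Hspd1 was lowest, and below its start on day 4 (−0.69 ± 0.10 SE, adjusted p = 1.46e-06). Its call on day 2 (0.24, adjusted p = 0.0402) was lost in 6 of 21 fits that left out a library, with 0.18 (adjusted p = 0.257) without 0 h replicate 1, and with multimapped reads subtracted (0.27, adjusted p = 0.104). With multimapped reads subtracted, day 1 gave 1.03 (adjusted p = 2.19e-07) for Hspe1 and −1.38 (adjusted p = 2.22e-09) for Hspd1.

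The less abundant members gave few calls in DMSO. Hspa1a was at 0.448 to 4.66 CPM and Hspa1b at 4.03 to 12.6 CPM over all DMSO libraries. Hspa1a was called higher on day 2 (1.94, adjusted p = 0.0298), a call that was lost without 0 h replicate 1 or either library of day 2 and by DESeq2. Dnajb1 ranged from 67.8 to 132 CPM and was called lower on day 2 (−0.50, adjusted p = 0.0285), which 3 of the 21 left-out libraries and DESeq2 took away. Bag3 was lower on day 1, with 16.8 and 14.3 CPM against 34.5 and 30.3 before RA (−1.04 ± 0.22 SE, adjusted p = 0.000342).

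**Figure D4:**
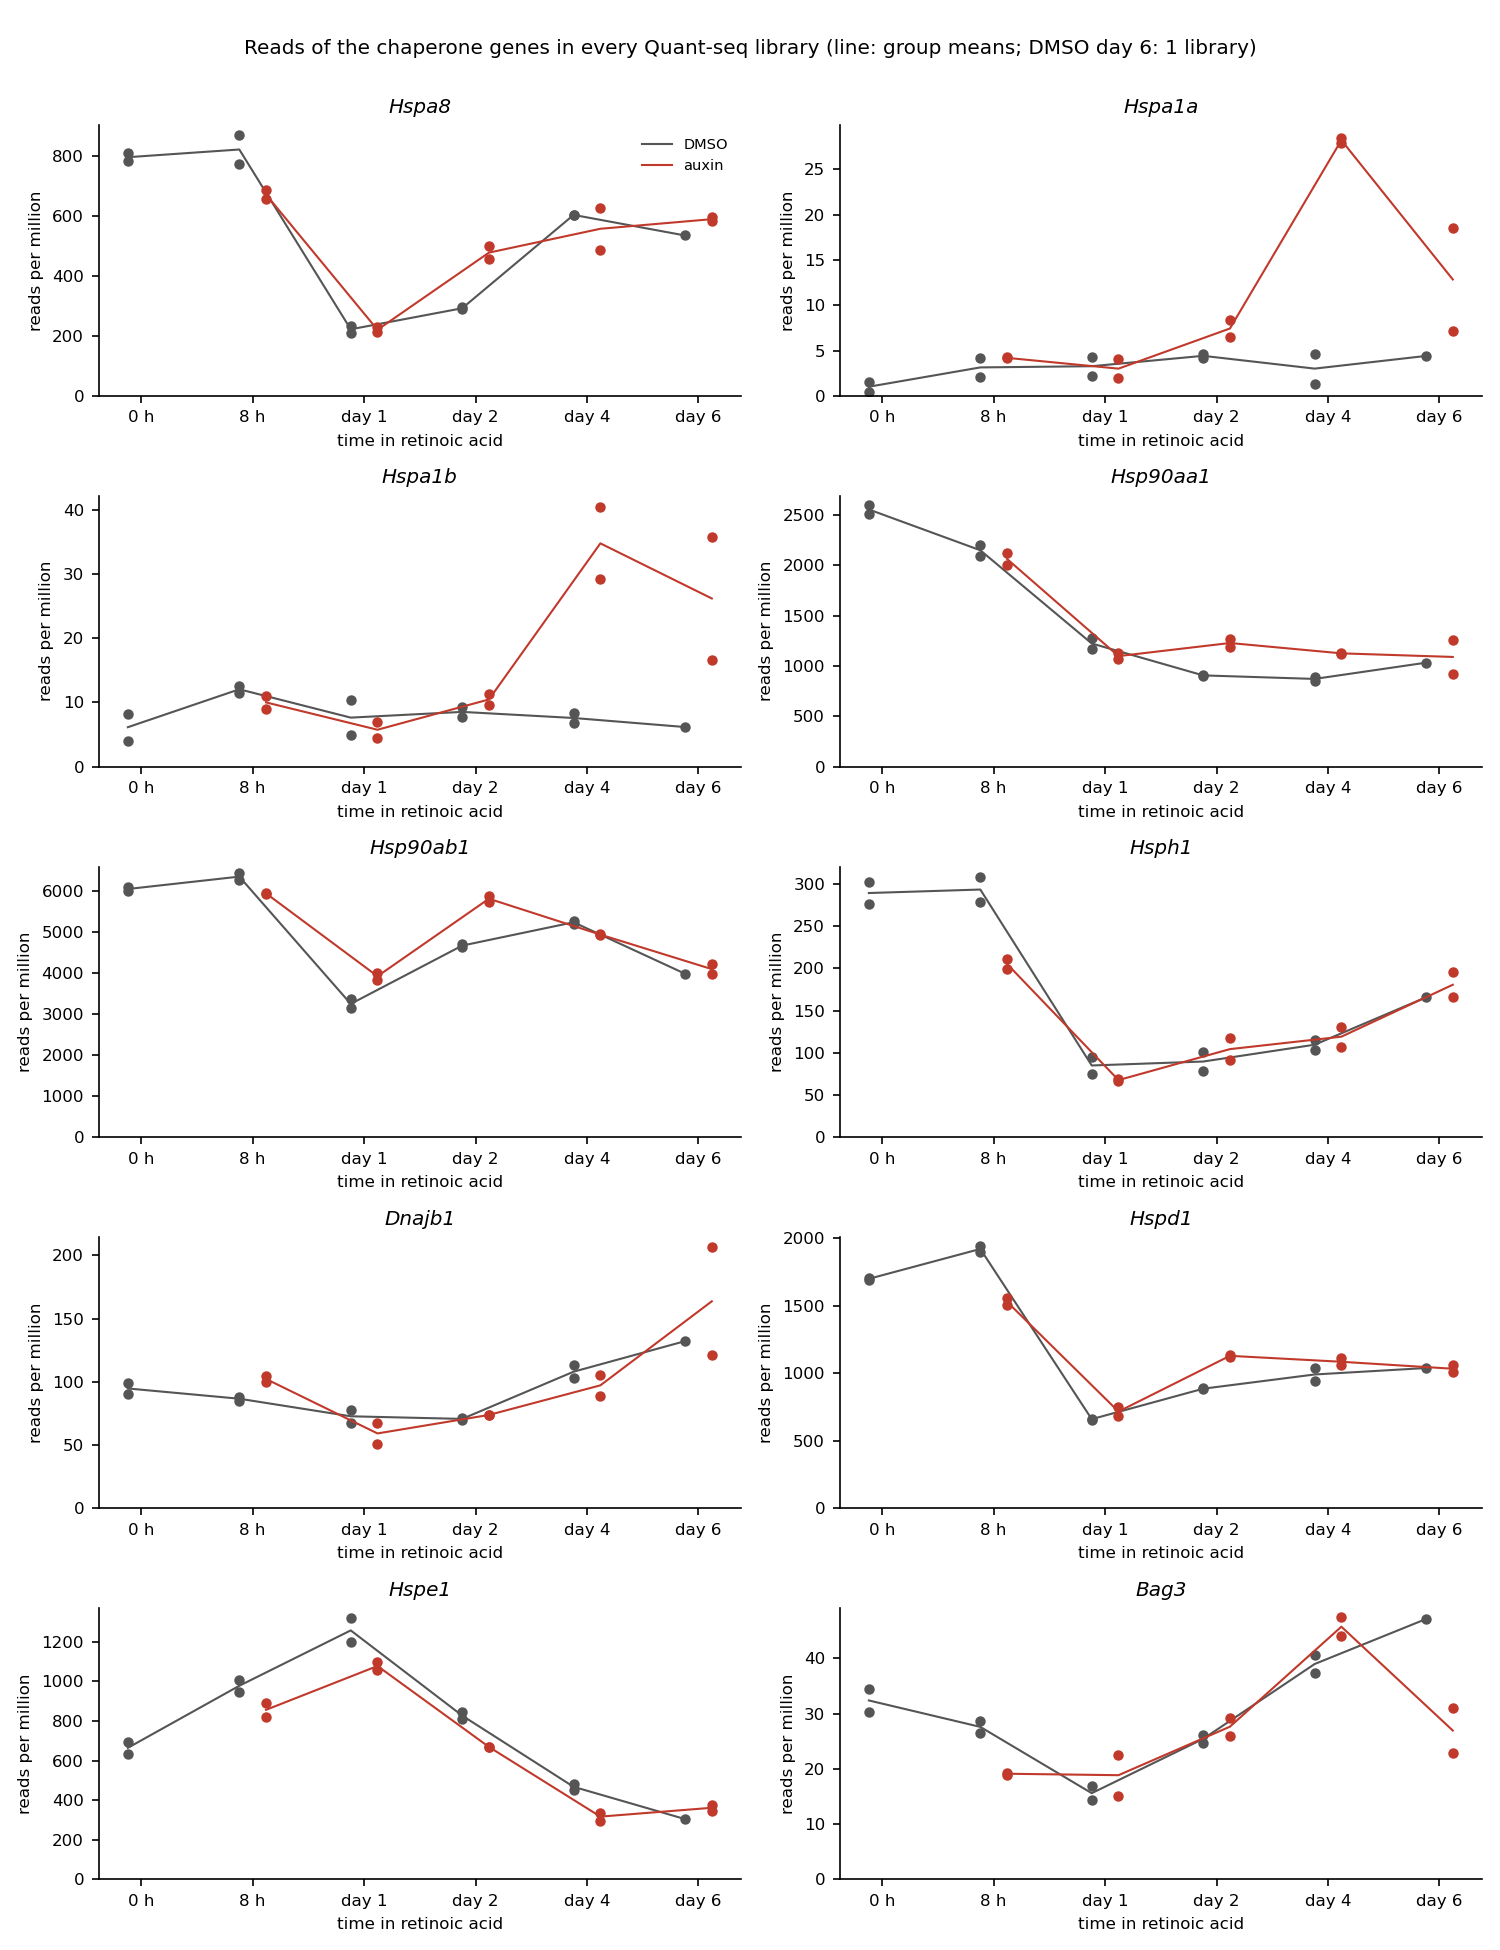
CPM (y axis, linear, its own scale per panel) of each of the 10 genes against time in RA (x axis), with 1 point per Quant-seq library, DMSO in grey and auxin in red, and a line through the group means. Hspa1a on day 4 is at 27.9 and 28.5 with auxin and at 1.35 and 4.66 with DMSO. Day 6 in DMSO is 1 library.

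With auxin, the inducible Hsp70 genes were higher on day 4 of RA. Hspa1a had 27.9 and 28.5 CPM with auxin against 1.35 and 4.66 with DMSO, and Hspa1b had 29.2 and 40.3 against 6.76 and 8.39. The groups did not overlap for either gene. Log2 fold changes were 3.00 ± 0.45 SE, adjusted p = 1.98e-05, for Hspa1a and 1.98 ± 0.35 SE, adjusted p = 0.00016, for Hspa1b, where 7.04% of all genes were called higher, and both calls held in all 21 fits that left out a library. On day 6 auxin gave 18.6 and 7.12 CPM of Hspa1a against 4.41 in the DMSO library and 35.7 and 16.6 of Hspa1b against 6.17, with no test. At 8 h and on days 1 and 2 neither gene passed the test.

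On the same day the other members were lower or did not pass. Hspe1 (296 and 336 CPM with auxin, 451 and 483 with DMSO, −0.77 ± 0.10 SE, adjusted p = 3.9e-06), Hsp90ab1 (−0.30, adjusted p = 0.00707) and Hspa8 (−0.32, adjusted p = 0.0321) were called lower (11.5% of all genes). Hspe1 was called in every fit that left out a library. Hspa8 was lost without auxin replicate 1 or either DMSO library of day 4, and Hsp90ab1 without auxin replicate 1 or DMSO replicate 2. With no TMM factors Hsp90ab1 was at −0.09 and Hspa8 at −0.11, and neither was called, while Hsp90aa1 was called higher at 0.37 (adjusted p = 0.0105). Summed pluripotency markers were at 2161 CPM with auxin and 3377 with DMSO on day 4 (5 of 7 called lower), summed primitive endoderm markers at 609 and 1504 (5 of 5 lower) and summed fibroblast markers at 51.2 and 30.6 (1 of 3 tested higher). Their part in these differences was not tested.

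Earlier in RA other members differed, and Hspa1a and Hspa1b were not called. At 8 h Hspd1 (1503 and 1554 CPM with auxin against 1898 and 1941, −0.42 ± 0.08 SE, adjusted p = 0.0086) and Hsph1 (211 and 199 against 278 and 308, −0.61 ± 0.14 SE, adjusted p = 0.0229) were called lower, with 0.736% of all genes. Both calls were lost when any of the 4 libraries of 8 h was left out. On day 1 Hsp90ab1 was higher (0.29, adjusted p = 0.0223, 3.52% of all genes), also lost without any 1 of the 4 libraries of that day. On day 2 Hspa8 (501 and 456 against 289 and 296 CPM, 0.60 ± 0.11 SE, adjusted p = 0.000428) and Hsp90aa1 (0.33, adjusted p = 0.0218) were higher (5.32%), and Hspe1 (−0.42, adjusted p = 0.00436) was lower (8.09%). Hsp90aa1 was lost without any 1 of the 4 libraries of day 2, and Hspe1 without DMSO replicate 2. Summed pluripotency markers were at 5150 CPM with auxin and 6067 with DMSO at 8 h (1 of 7 called lower) and at 4851 and 7374 on day 1 (3 of 7 lower). On day 1, 1 of 3 trophectoderm markers tested was lower, and 1 of 5 primitive endoderm and 1 of 5 RA and neural markers tested were higher. On day 2 summed pluripotency markers were at 3024 CPM with auxin and 4230 with DMSO (3 of 7 called lower), summed primitive endoderm markers at 241 and 366 (3 of 5 lower), summed trophectoderm markers at 174 and 229 (2 of 3 tested lower, 1 higher) and summed fibroblast markers at 16.8 and 2.89 (1 of 3 tested higher). Their part in these differences was not tested.

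Levels of the inducible Hsp70 genes before auxin, dTAG-13 or RA differed between the experiments. At 0 h Hspa1b was at 22.0, 55.2 and 48.9 CPM in the SLAM-seq libraries of DPY30–mAID cells, 11.5, 16.5 and 21.4 in RBBP5–FKBP cells, 6.03 and 6.29 in dKO cells and 4.03 and 8.26 in the unlabelled Quant-seq libraries of DPY30–mAID cells. Hspa1a was at 14.2, 17.1 and 14.1, 0, 2.45 and 2.91, 0.882 and 1.80 and 0.448 and 1.57 in the same order. The libraries differ in line, labelling and read length, which cannot be told apart here, and no test was made.

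Other chaperone genes give the surroundings of these values. HSF1 and HSF2 are transcription factors of the heat-shock response. T>C reads of Hsf1 were at −0.88 (adjusted p = 0.498) and those of Hsf2 at −0.30 (adjusted p = 0.653) at 8 h in DPY30–mAID cells, and neither passed the test. At 24 h they were at −2.30 (adjusted p = 0.158) and 0.10 (adjusted p = 0.915). Hsf2 fell in RBBP5–FKBP cells at 24 h (−1.33 ± 0.41 SE, adjusted p = 0.0108), where Hsf1 did not pass the filter and 25.9% of all genes were lower. Both fell in the dKO cells at 48 h, Hsf1 at −2.35 (adjusted p = 0.0123) and Hsf2 at −1.13 (adjusted p = 0.0261). There 72.2% of all genes were lower, and the median over all genes was −1.29. On RA day 4 in DMSO Hsf1 was at −0.53 (adjusted p = 0.0868) and Hsf2 at −0.13 (adjusted p = 0.435), and with auxin against DMSO on that day they were at 0.21 (adjusted p = 0.658) and −0.17 (adjusted p = 0.447).

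In DPY30–mAID cells at 8 h, T>C reads fell for 5 of 6 tested genes of TRiC/CCT, the cytosolic chaperonin, led by Cct3 (−1.65, adjusted p = 0.000327), for 6 of 15 cochaperones of Hsp70 and Hsp90, led by Chordc1 (−2.76, adjusted p = 0.000343) and Ahsa1 (−1.57, adjusted p = 0.0005), and for 4 of 10 other J-domain genes, led by Dnaja1 (−1.83, adjusted p = 7.76e-05). The share was 1 of 13 for chaperones of the endoplasmic reticulum (Canx, −1.16 (adjusted p = 0.02)) and 2 of 5 for other mitochondrial chaperones, and 16.1% of all genes were called lower. Of the small heat-shock genes tested, Hspb1 fell (−1.37, adjusted p = 0.000555), and Hspb8 did not pass the test (0.998, adjusted p = 0.24). At 24 h Hspa5, the Hsp70 of the endoplasmic reticulum, and Calr, a lectin chaperone, were higher (1.11, adjusted p = 0.0224 and 1.10 (adjusted p = 0.0393)), as was the small heat-shock gene Hspb8 (2.80, adjusted p = 0.00258), where 0.823% of all genes were. Hspa5 was lower in RBBP5–FKBP cells at that time (−1.94, adjusted p = 9.16e-10).

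On day 4 of RA in DMSO, when 26.5% of all genes were called lower and 27.8% higher, 7 of 7 TRiC/CCT genes were lower, with Tcp1 at −2.42 (adjusted p = 0.00716), as were 5 of 6 other mitochondrial chaperones, led by the protease gene Lonp1 (−1.01, adjusted p = 5.89e-07), and 11 of 17 cochaperones, led by Fkbp5 (−1.80, adjusted p = 2.04e-11), with 1 cochaperone, Bag2, higher (1.57, adjusted p = 0.000465). Of the 15 chaperones of the endoplasmic reticulum, 7 were higher and 1 was lower. The collagen chaperone Serpinh1 rose most among them (5.51 ± 0.15 SE, adjusted p = 6.5e-21). Auxin against DMSO on day 4 lowered Serpinh1 (−1.92 ± 0.11 SE, adjusted p = 9.71e-13) and 4 others of the 15, where 11.5% of all genes were lower. Of the 7 other Hsp70 genes tested, 3 were higher with auxin, among them Hspa12b (1.87, adjusted p = 0.00176) and Hspa2 (1.19, adjusted p = 0.00358), against 7.04% of all genes higher.

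Likeness of pattern was measured as Pearson's r of log2 CPM over the 11 Quant-seq groups, among 11415 genes. These values are descriptions over groups that share time and cell type and carry no p. The nearest gene was Cops4 for Hspe1 (r = 0.991), BC030867 for Hsp90aa1 (0.976), Mum1 for Hspa8 (0.972), Phf20 for Hsph1 (0.969), Tead4 for Dnajb1 (0.939), Speg for Bag3 (0.936), Fubp3 for Hsp90ab1 (0.935), Adcy2 for Hspa1a (0.934) and Gm21319 for Hspa1b (0.875). Among the members themselves, Hsph1 and Hspd1 were each other's nearest (0.912), and Hspa1a and Hspa1b likewise (0.847). The lowest such values were those of Hspe1, whose nearest member was Hsp90aa1 at 0.559, and of Bag3, whose nearest member was Hspa8 at 0.505.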

How the data were processed

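Newly made and total RNA was measured by 3′ end sequencing in 36 SLAM-seq libraries, and total RNA in 22 Quant-seq libraries. The authors deposited, per 3′ UTR, whole-number read counts, T>C read counts and multimapped read counts, with CPM (reads scaled to a common library size) beside them. The file headers name SlamDunk 0.3.4, and the submitters' notes also name HISAT2 2.2.1. The build was GRCm38. The study's methods require at least 2 conversions per read, a filter that was not applied in the deposited T>C counts.

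Here 3′ UTR counts were summed per gene symbol. A gene was tested if some group averaged 10 reads or more. The test was the quasi-likelihood test of edgeR 4.0.16 (R 4.3.3), with Benjamini-Hochberg adjustment over all genes tested, and a call is an adjusted p under 0.05. For T>C reads the library size was the total of all reads, with TMM factors from all reads. Scripts were tested on simulated data. The deposited CPM were not tested, and CPM in the text were computed from counts. Each line was compared with its own 0 h, RA times in DMSO with 0 h, and auxin with DMSO at each RA time. Alternatives were DESeq2 1.42.0, no TMM factors, TMM factors and library size from T>C reads, no filter on low counts, a replicate block, multimapped reads subtracted, Hspa1a and Hspa1b summed, and each library left out. The 10 genes and the other gene lists were chosen with earlier results of these data known. All members are named, and from each other list at most the 2 called genes with the largest change in each direction, with Hsf1 and Hsf2 always given. Genes of like pattern are those with the highest r. For 1 member that gene is not reported here. Day 6 in DMSO enters as 1 library because its deposited pair is identical.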

Additional observations from a re-analysis of the deposited data

Results flagged for a closer look

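The change of T>C reads from 0 to 24 h differed between lines for 4 members. RBBP5–FKBP minus DPY30–mAID cells gave −2.76 for Dnajb1, −1.74 for Hspa8, −1.51 for Hspe1 and −1.34 for Hsp90aa1 on the log2 scale, by the interaction of line and time in edgeR. With TMM factors and library size from T>C reads these were −2.07 (adjusted p = 0.00179) for Dnajb1 and −1.10 (adjusted p = 0.0375) for Hspa8, and Hspe1, at −0.87 (adjusted p = 0.179), and Hsp90aa1, at −0.70 (adjusted p = 0.0958), were not called. For Hspa8, dKO minus DPY30–mAID cells at 24 h gave −1.32, a call that held in 7 of 24 fits that left out a library. It was −0.71 (adjusted p = 0.0397) with TMM factors and library size from T>C reads, and not called with no TMM factors (−1.29, adjusted p = 0.0534). The T>C share of whole libraries at 24 h averaged 15.3% in DPY30–mAID, 5.13% in RBBP5–FKBP and 3.06% in dKO cells, and its part in these differences was not tested.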

How the results depend on the processing

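Counts of calls below are sums over the members and times of a comparison. Asking for an absolute log2 fold change over 1 as well took the T>C calls from 11 to 7 lower in RBBP5–FKBP and from 13 to 8 in dKO cells. On total reads it took them from 12 to 6 lower and 4 to 1 higher in DPY30–mAID, from 3 to 1 in RBBP5–FKBP, and from 7 to 0 lower and 1 to 0 higher in dKO cells. RA in DMSO went from 18 to 11 lower and 5 to 1 higher, and auxin against DMSO from 6 to 0 lower and 5 to 2 higher. With TMM factors and library size from T>C reads, RBBP5–FKBP gave 1 lower call, dKO 1 lower and 2 higher, dKO minus DPY30–mAID 4 higher in place of 0, and RBBP5–FKBP minus DPY30–mAID 2 lower in place of 4. In the dKO cells it reversed Hsp90aa1 to 0.38 at 24 h and 0.41 at 48 h, and Hsp90ab1 to 0.078 at 48 h. DESeq2 gave 6 lower on total reads of RBBP5–FKBP and 4 higher for dKO minus DPY30–mAID. No filter on low counts gave 6 lower for total RBBP5–FKBP, 15 lower and 2 higher for total dKO, and 2 higher for dKO minus DPY30–mAID. No TMM factors gave 3 lower and 2 higher for total dKO, 3 lower and 8 higher for auxin, and 0 lower for dKO minus DPY30–mAID. With multimapped reads subtracted, 3 higher calls remained in number for RA and 3 for auxin, and Hsp90aa1 in total reads of DPY30–mAID at 8 h reversed to 0.18. The cause was not tested.

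The replicate block gave 2 higher calls on total dKO reads in place of 1, adding Hspa1a at 48 h (1.55, adjusted p = 0.0486), added 3 lower calls at 48 h, Hsp90aa1 (−0.21, adjusted p = 0.0242), Hsph1 (−0.30, adjusted p = 0.0372) and Bag3 (−0.47, adjusted p = 0.0442), called Hspd1 higher in T>C reads of DPY30–mAID from 8 to 24 h (0.98, adjusted p = 0.028), and ended the call of Hsp90aa1 in total DPY30–mAID reads at 8 h. The mean r of libraries with the same number lay between −0.0083 and 0.046 by comparison, and single pairs between −0.203 in Quant-seq and 0.356 in total dKO reads. The labels name no shared source for a number, and the numbers were not taken to pair the libraries.

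Leaving out 1 library gave these ranges of calls. T>C reads had 7 to 12 lower and 4 to 7 higher in DPY30–mAID, 9 to 11 lower and 0 higher in RBBP5–FKBP, and 10 to 15 lower and 0 higher in dKO. Total reads had 9 to 13 lower and 4 to 5 higher, 1 to 6 lower and 0 higher, and 3 to 8 lower and 0 to 1 higher in the same order. RA had 17 to 20 lower and 2 to 6 higher, auxin 4 to 9 lower and 4 to 7 higher, dKO minus DPY30–mAID 0 to 2 lower and 0 to 7 higher, and RBBP5–FKBP minus DPY30–mAID 3 to 4 lower and 0 to 1 higher. Hspa1a, Hspa1b and Bag3 had the fewest T>C reads among the members, 128, 445 and 308 over all SLAM-seq libraries. The part of depth in their results was not tested.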
